A study of Mus musculus with 2 samples.

Results

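The genes described here are the mouse Wnt ligands and the proteins that receive, modulate and relay their signal, compared between 1 normal kidney and 1 kidney tumour. They were chosen by name: every deposited gene model whose symbol is a numbered Wnt, Fzd (Frizzled), Dkk (Dickkopf), Sfrp (secreted Frizzled-related protein) or Rspo (R-spondin), together with Axin1 and Axin2, Lrp5 and Lrp6, the Tcf7 family and Lef1, Lgr4 to Lgr6, Znrf3, Rnf43, Ctnnb1, Apc and Sp5. This gave 57 genes of 30744 symbols in the table, with 1 gene model each. Of these, 50 had at least 20 reads over both libraries and are called measured. The other 7 are given by their reads alone.

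Wnt proteins are secreted, lipid-modified ligands that bind a Frizzled receptor together with the co-receptor LRP5 or LRP6. In the canonical branch this stops a destruction complex of AXIN, APC and kinases from degrading beta-catenin, which then enters the nucleus and acts with TCF/LEF factors on target genes, several of which encode feedback inhibitors of the pathway. In the developing kidney Wnt9b from the ureteric bud and Wnt4 from the forming nephron drive nephron formation, while in the early embryo Wnt3 is needed for the primitive streak and beta-catenin relieves repression by TCF7L1 in pluripotent cells.

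The normal library came from a kidney labelled wild type (WT), without doxycycline. The tumour library came from a kidney labelled Tet-OSKM/mPer2-luc, with doxycycline. For both, the background is given as F1 of C57BL/6 x DBA/2. OSKM stands for the reprogramming factors Oct4, Sox2, Klf4 and c-Myc, here under a tetracycline operator that the reverse transactivator M2rtTA at Rosa26 switches on with doxycycline; mPer2-luc couples luciferase to the clock gene Per2. A protocol that stands with both samples describes chimaeras, grown from blastocysts injected with embryonic stem cells that hold these alleles, so that only part of the cells of such an animal carries them. Age, sex and the length of doxycycline exposure are not stated in the labels used here.

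With 1 library per group there is no spread between replicates. The values therefore compare these 2 libraries, not the conditions, and no p-value was computed. The gene models held 29258428 normal and 20836819 tumour reads. A call of higher or lower refers to the tumour library throughout, and needed a ratio of scaled counts of at least 2-fold whose exact 95% counting interval, given in parentheses after each fold, excluded equality. These intervals cover counting error only. CPM are counts relative to the library total, which was scaled by TMM (trimmed mean of M-values). A level is the scaled CPM per kilobase of the deposited transcript length, and levels of different genes are compared on that scale alone. For a gene with 0 reads in the normal library the fold was computed against 3 reads and is written as "at least", and the lower end of its counting interval is given beside it.

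As a check of the labels, Pou5f1, which encodes Oct4, had 0 normal and 11358 tumour reads. Markers of the proximal tubule were lower in the tumour library for 5 of 5 genes, with a summed level of 47152 against 55.2, and markers of the collecting duct for 6 of 6, with 142 against 13.4. Markers of pluripotent cells were higher for 6 of 6 genes, with a summed level of 6.32 against 557. Pou5f1 and Sox2 in that list, with tumour levels of 333 and 61.6, are themselves among the induced reprogramming factors. The sum therefore does not stand for pluripotent cells alone. Markers of the primitive streak were higher for 5 of 5 measured genes (0.368 against 28.4), and neural markers for 5 of 5 measured genes (7.67 against 93.7). Of 7 podocyte markers 1 was higher, 2 lower and 4 neither (80.0 against 57.1). In whole tissue, fewer cells of a type and less RNA per cell cannot be told apart.

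Among the 50 measured Wnt genes, 24 (48.0%) were called higher, 11 (22%) lower and 15 neither, so that 70.0% had a call. The background over all 16326 measured genes was 31.2% higher, 28.0% lower and 59.2% in either direction. The median log2 ratio was 1.02 for the measured members and 0.08 for all measured genes. These figures are a description, because 16 of the 24 higher members had fewer than 20 reads in the normal library and reached the minimum through the tumour library (over all genes 1981 of 5099), and 2 of the 11 lower members had fewer than 20 reads only in the tumour library (851 of 4566). Higher calls made up 68.6% of the calls among members, against 81.1% under plain CPM (30 higher, 7 lower), 78.9% with the totals in the file headers (30 and 8) and 78.8% with the deposited RPKM plus 0.1 (26 and 7). Under these 3 scalings the median over the whole table moved up on the log2 scale by 0.56, 0.35 and 0.32, and the share of higher calls over all genes from 52.8% to 67.6%, 62.5% and 62.6%, so that a member with a ratio near 2-fold can change its call.

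**Figure D1:**
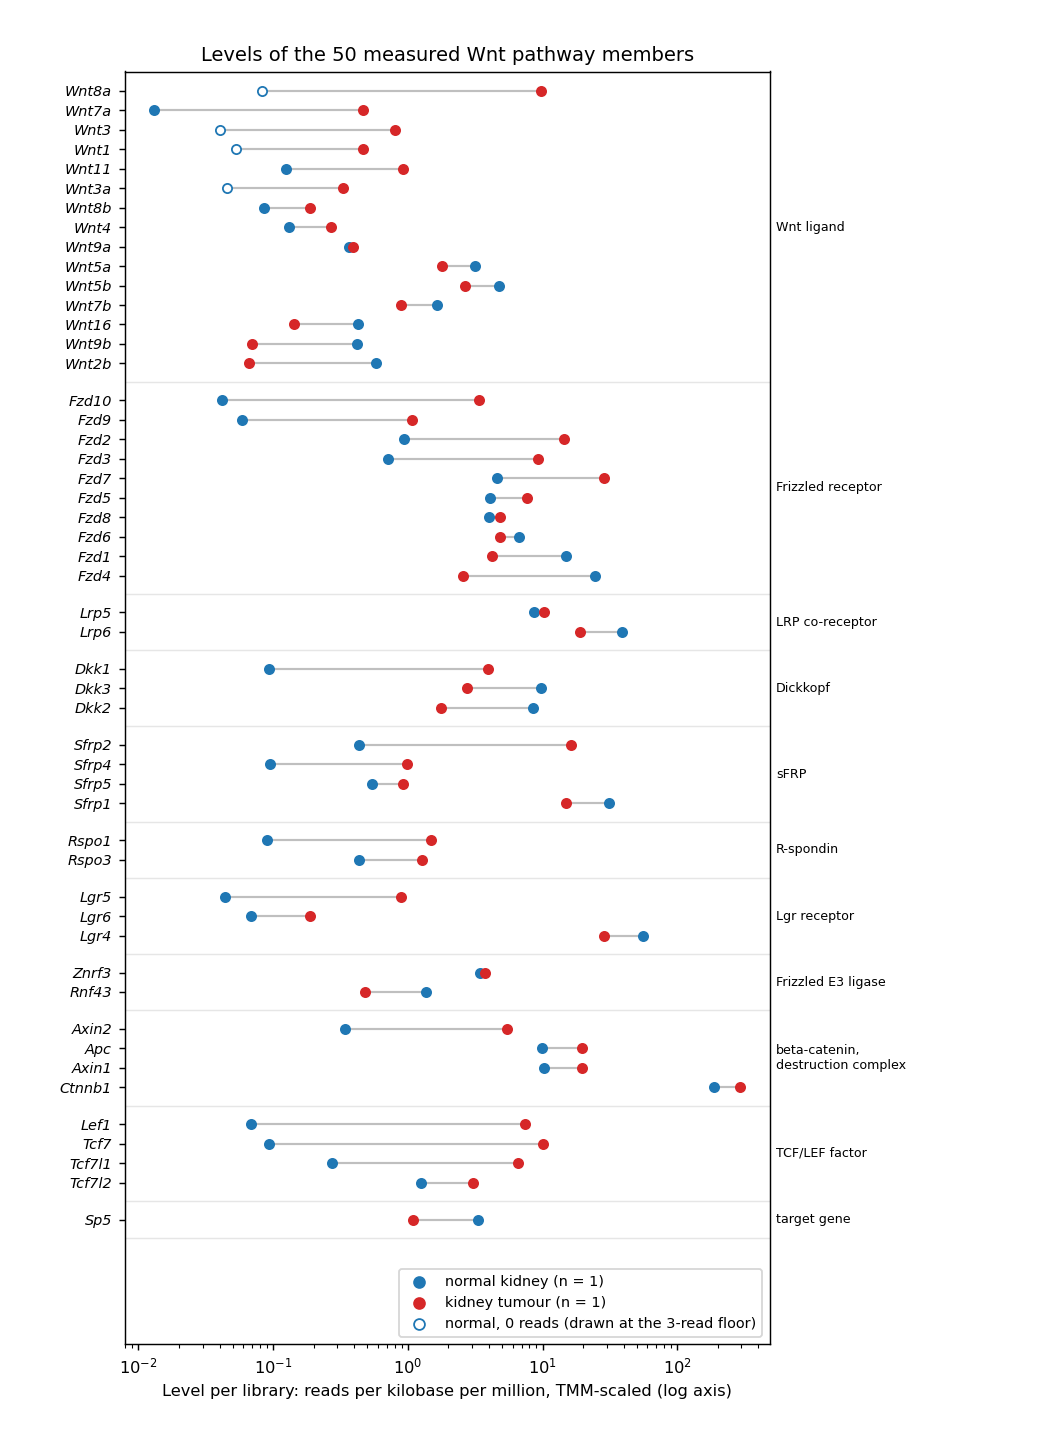
Level of each of the 50 measured members in the normal (blue) and the tumour (red) library, on a log axis in scaled CPM per kilobase, grouped by role. Open circles mark 4 ligands with 0 reads in the normal library, drawn at the floor of 3 reads, and Lef1, Tcf7, Fzd10, Dkk1 and Sfrp2 show long gaps with the tumour value on the right.

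The leading ligand was not the same in both libraries. In normal kidney Wnt5b, Wnt5a and Wnt7b, with levels of 4.72, 3.17 and 1.65, made up 39.1%, 26.3% and 13.7% of the summed level of all 19 Wnt genes. Each of these 3 stood apart from the next in the order by its counting interval. In the tumour library Wnt8a, a ligand of the early embryo, led with a level of 9.67, or 49.5% of the sum, 3.66 times (3.01 to 4.46) the level of Wnt5b. The summed ligand level was 12.1 in normal kidney and 19.6 in the tumour.

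Wnt8a had 0 normal and 370 tumour reads, at least 118-fold more after scaling (lower end of the interval 95.2). Wnt3 (chromosome 11, 103774175 to 103818021), a ligand of the posterior epiblast, had 0 and 63 reads, at least 20.03-fold higher (lower end 15.8). Wnt1 (chromosome 15, 98789857 to 98793830), which patterns the midbrain and neural crest, had 0 and 28 reads, at least 8.90-fold higher (6.78). Wnt3a (chromosome 11, 59248042 to 59290751), a ligand of the primitive streak and tail bud, had 0 and 23 reads, at least 7.31-fold higher (5.48). These were the 4 measured members without a read in the normal library, beside 655 of 16326 genes over the whole table. Such a gene can be measured only through its tumour reads, and Rspo2, Rspo4 and Dkk4, also at 0 normal reads, were not measured. All 4 are known as ligands that signal through beta-catenin, which describes genes selected by the read minimum. The primitive streak markers named above moved with them, with Mixl1, Fgf8 and Gsc at 0 reads in the normal library, as did the neural markers, with Pax6, Sox1, Tubb3 and Otx2 at 0. The part of such cells in these ligand values was not tested.

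Wnt7a (1 and 37 reads) was 35.3-fold higher (5.95 to 1431) and Wnt11 (9 and 70 reads), a ligand of the ureteric bud tip and of cell movement, 7.42-fold higher (3.69 to 16.9). Wnt4, the ligand of the forming nephron, had 12 and 26 reads and was 2.07-fold higher (1.007 to 4.497), and with the deposited RPKM plus 0.1 its log2 ratio was 0.78, short of a call. Its interval reaches almost to equality. Markers of nephron progenitors were higher for 3 of 4 measured genes and lower for 1 (Osr1). The summed level of all 5 markers was 9.74 against 23.7, of which Sall1 alone held 9.12 and 19.7. Cited1 had 0 normal and 64 tumour reads, and Six2, with 0 and 8, was not measured. The part of such cells in the Wnt4 value was not tested. On the lower side stood Wnt2b (50 and 6 reads), 8.74-fold (3.74 to 24.9), Wnt9b (46 and 8 reads), the inducer of the nephron, 6.03-fold (2.82 to 14.8), and Wnt16 (17 and 6 reads), 2.97-fold (1.12 to 9.20). Wnt16 was not called with plain CPM, header totals or RPKM plus 0.1 (log2 ratios of -1.013, -1.22 and -0.76). Wnt9b is a gene of the ureteric bud and collecting duct, whose 6 markers were all lower in the tumour library, none of them at 0; their part in its value was not tested.

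The ligands that led in the normal kidney were nearer to each other in the 2 libraries. Wnt5a, the main ligand of the non-canonical branch, had 285 and 169 reads, 1.77-fold fewer after scaling (1.46 to 2.15), Wnt5b 247 and 145 reads (1.79, 1.45 to 2.21) and the collecting duct ligand Wnt7b 134 and 76 reads (1.85, 1.39 to 2.48). All 3 intervals exclude equality and none of the 3 reached 2-fold. Wnt9a had 29 and 33 reads and Wnt8b 7 and 16, and both intervals include equality; Wnt8b was called higher with plain CPM and header totals. Wnt2 (9 and 10 reads), Wnt10a (8 and 6), Wnt6 (1 and 4) and Wnt10b (1 and 3) were not measured.

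Several Wnt genes lie side by side in the genome, and their values are set next to each other here. On chromosome 11 of mm10, Wnt9b and Wnt3 lie head to head, 24.4 kb apart with no other deposited gene model between them. Wnt9b had 46 normal and 8 tumour reads, whereas Wnt3 had 0 and 63. On the same chromosome Wnt3a and Wnt9a lie head to head at 16.2 kb, with 0 and 23 reads for Wnt3a against 29 and 33 for Wnt9a. Wnt10b and Wnt1, 11.7 kb apart and head to head on chromosome 15, had 1 and 3 reads and 0 and 28 reads. Wnt6 and Wnt10a, in tandem 6.70 kb apart on chromosome 1, both stayed under 10 reads in each library. Of the measured neighbours Wnt3a and Wnt9a, then, only Wnt3a was called, and at the Wnt9b and Wnt3 locus the calls were opposite. Wnt1 was called higher, but Wnt10b had too few reads to be measured, so that pair cannot be compared.

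**Figure D2:**
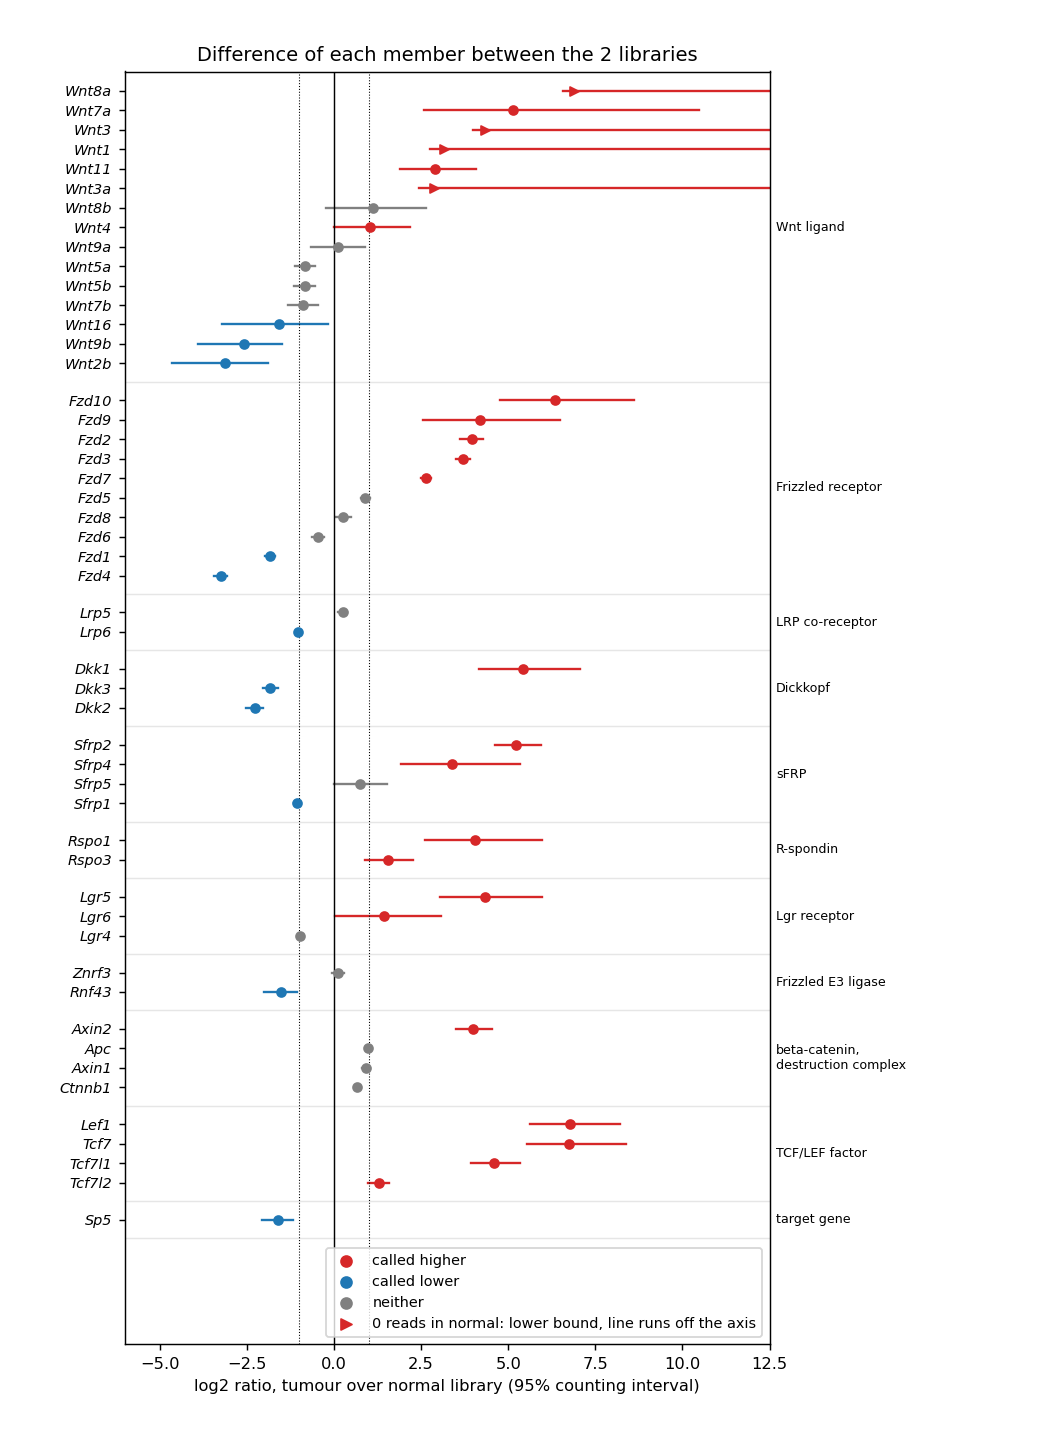
log2 ratio of each measured member, tumour over normal library, with its 95% counting interval as a line and dotted lines at 2-fold. Triangles are lower bounds for the 4 ligands with 0 reads in the normal library, red marks the 24 members called higher, blue the 11 called lower and grey the other 15.

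All 10 Frizzled receptors were measured, and a different one led in each library. In the normal kidney Fzd4 led with a level of 24.3 (40.2% of the summed Frizzled level), followed by Fzd1 at 15.03 (24.9%) and Fzd6 at 6.64. In the tumour library Fzd7 led with 28.8 (35.5%), followed by Fzd2 at 14.5 (17.9%) and Fzd3 at 9.26 (11.4%). Fzd7 stood 1.99 times (1.87 to 2.12) above Fzd2 there, and Fzd6, Fzd8 and Fzd1, at 4.87, 4.84 and 4.24, did not differ from the neighbour in that order beyond counting error. The summed level was 60.5 in normal kidney and 81.1 in the tumour.

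Of the 10 receptors 5 were higher, 2 lower and 3 neither, beside 31.2% higher and 28.0% lower over all measured genes. Of the 5 higher receptors, Fzd10 and Fzd9 reached the read minimum through the tumour library. Fzd10 had 3 normal and 253 tumour reads (80.5-fold, 27.2 to 393) and Fzd9 had 3 and 57 (18.1-fold, 5.90 to 90.5). Fzd2 (chromosome 11, 102604431 to 102608058) had 82 and 1328 reads (15.5-fold, 12.4 to 19.6). Fzd3, a receptor of planar cell polarity and axon guidance, had 218 and 2980 reads (13.04-fold, 11.4 to 15.03). Fzd7 (chromosome 1, 59482147 to 59486955), which is prominent in embryonic stem cells, had 537 normal and 3502 tumour reads (6.22-fold, 5.68 to 6.83). Fzd1, Fzd2 and Fzd7 form 1 subfamily by sequence, yet Fzd1 had 1587 normal and 469 tumour reads and was 3.55-fold lower (3.20 to 3.94).

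Fzd4 (chromosome 7, 89404366 to 89410110), the receptor of the non-Wnt ligand Norrin in blood vessels, had 2160 and 238 reads and was 9.51-fold lower (8.32 to 10.9). Its co-receptor Tspan12 (971 and 265 reads) was 3.84-fold lower (3.35 to 4.42), and the gene of Norrin, Ndp, had 1 and 26 reads (24.8-fold higher, 4.08 to 1017). Endothelial markers were lower for 3 of 5 genes and neither for 2, with a summed level of 127 against 37.8 and none at 0, and Kdr was 15.8-fold lower (13.9 to 18.1) while Pecam1 was 1.31-fold lower (1.22 to 1.40) and not called. Their part in the Fzd4 value was not tested. The remaining receptors lay within 2-fold. Fzd5 had 681 and 1330 reads (1.86-fold, 1.70 to 2.05) and was called higher with plain CPM, header totals and RPKM plus 0.1. Fzd8 had 323 and 409 reads (1.21-fold, 1.04 to 1.40). Fzd6 had 652 and 502 reads, 1.36-fold fewer after scaling (1.21 to 1.53), and its log2 ratio moved from -0.45 to 0.11 with plain CPM, so its direction depends on the scaling.

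The co-receptors Lrp5 and Lrp6 bind Wnt together with Frizzled. Lrp6 was the higher of the pair in both libraries, with levels of 39.0 and 19.0 against 8.67 and 10.3 for Lrp5. Lrp6 had 8779 and 4490 reads and was 2.05-fold lower (1.98 to 2.13), a call that was lost with plain CPM (log2 ratio -0.48), header totals (-0.68) and RPKM plus 0.1 (-0.68). Lrp5 had 1076 and 1339 reads (1.19-fold, 1.10 to 1.29).

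Among the secreted inhibitors, too, the leading member of a family differed between the libraries. Dickkopf proteins block LRP5 and LRP6, except DKK3, which is a divergent member. Dkk1 (chromosome 19, 30545885 to 30549496), itself a feedback target of beta-catenin, had 5 normal and 223 tumour reads (42.6-fold, 18.0 to 132). Dkk2 (762 and 166 reads) was 4.81-fold lower (4.06 to 5.73) and Dkk3 (782 and 231 reads) 3.55-fold lower (3.06 to 4.13). Dkk2 and Dkk3 together held nearly the whole Dickkopf level of the normal kidney (46.6% and 52.9%), whereas Dkk1 led the tumour library with 46.6%. Dkk4 had 0 and 1 reads.

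The secreted Frizzled-related proteins bind Wnt outside the cell. The members hold the 4 genes with an Sfrp symbol; Frzb, a further gene of the family, is not among them by its name and had levels of 9.39 and 3.69. Sfrp1 made up 96.7% of the summed level of the 4 genes in normal kidney (74.9% with Frzb), with 3291 reads, and had 1645 reads in the tumour library, 2.10-fold lower (1.98 to 2.23). That call was lost with plain CPM, header totals and RPKM plus 0.1 (log2 ratios of -0.51, -0.72 and -0.71). Sfrp2 (chromosome 3, 83766321 to 83774314) had 21 and 827 reads (37.6-fold higher, 24.4 to 61.02) and held 49.4% of that sum in the tumour beside 44.9% for Sfrp1 (44.4% and 40.4% with Frzb). Its tumour level was only 1.099 times (1.010 to 1.196) that of Sfrp1, which had more reads, so its lead rests on the scaling by transcript length. Sfrp4 had 4 and 44 reads (10.5-fold higher, 3.82 to 40.2), and Sfrp5 had 25 and 44 (1.68-fold, 1.005 to 2.86) and was called higher with plain CPM and header totals. The summed level of the 4 genes was 32.3 in normal kidney and 33.2 in the tumour, and with Frzb 41.7 and 36.9. Sfrp2 is also a gene of mesenchyme. Markers of stroma and fibroblasts were higher for 4 of 8 genes and neither for 4, with a summed level of 72.7 against 196 and none at 0. The 4 higher were the collagen genes Col1a1, Col1a2 and Col3a1, and Lum. Pdgfra, Pdgfrb and Dcn were 1.61-fold, 1.23-fold and 1.485-fold lower in the tumour library, and Foxd1 had 17 and 16 reads. The part of such cells in the Sfrp2 value was not tested.

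**Figure D3:**
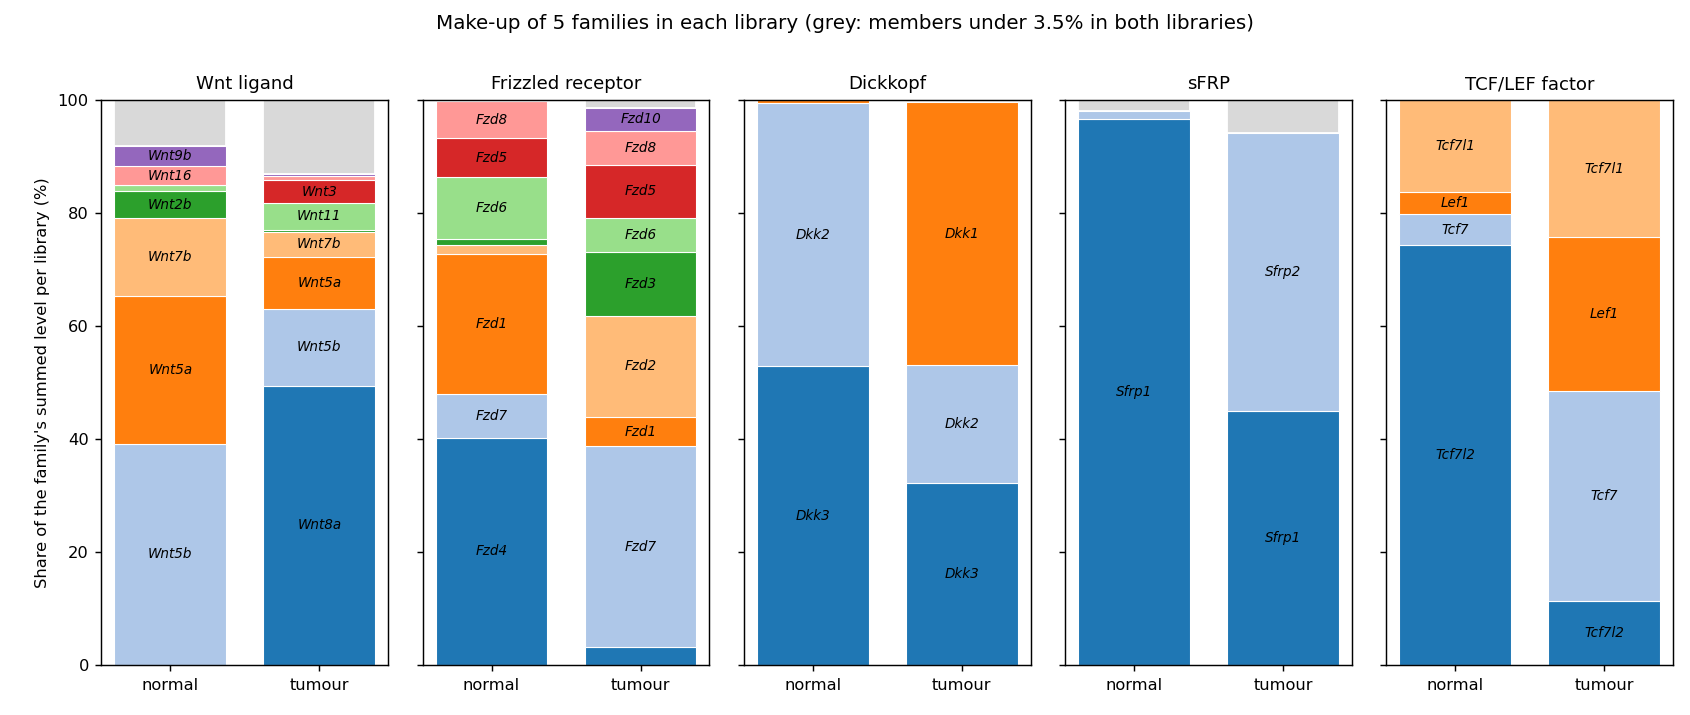
Share of each member in the summed level of its family, in percent, for 5 families and both libraries, with members under 3.5% in both libraries in grey and the sFRP panel holding the 4 Sfrp genes without Frzb. The leading member is Wnt5b, Fzd4, Dkk3, Sfrp1 and Tcf7l2 in the normal library and Wnt8a, Fzd7, Dkk1, Sfrp2 and Tcf7 in the tumour library. Sfrp2 leads Sfrp1 there by a ratio of only 1.099.

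R-spondins strengthen Wnt signals by binding LGR4, LGR5 or LGR6 and removing the ligases ZNRF3 and RNF43, which otherwise clear Frizzled from the membrane. Rspo1 had 4 normal and 69 tumour reads (16.5-fold higher, 6.14 to 62.1) and Rspo3 had 25 and 77 (2.94-fold higher, 1.85 to 4.82). Rspo2 had 0 and 6 reads and Rspo4 had 0 and 1. The levels of Rspo1 and Rspo3 in the tumour library, 1.49 and 1.27, did not differ beyond counting error.

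Lgr4 (chromosome 2, 109917647 to 110014257) was the main receptor in both libraries, with 99.8% and 96.4% of the summed Lgr level. It had 6827 and 3654 reads, 1.96-fold fewer after scaling (1.88 to 2.04), just short of a call. The stem cell marker Lgr5 had 5 and 105 reads (20.03-fold higher, 8.32 to 63.0). Lgr6 had 6 and 17 (2.70-fold higher, 1.02 to 8.37), and with RPKM plus 0.1 its log2 ratio was 0.78, short of a call. Of the ligases, Rnf43 (142 and 52 reads) was 2.86-fold lower (2.07 to 4.01), and Znrf3 (518 and 593 reads) had a ratio of 1.09 with an interval that includes equality (0.969 to 1.23). With plain CPM and RPKM plus 0.1 Rnf43 had log2 ratios of -0.96 and -0.98, short of a call.

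Of beta-catenin and the 3 members of its destruction complex, only Axin2 was called. Ctnnb1 (chromosome 9, 120933400 to 120960507), the gene of beta-catenin, had the highest level of all members in both libraries, 186 and 294, from 16200 and 26810 reads. It was 1.58-fold higher (1.55 to 1.61), short of 2-fold. Apc (2993 and 6224 reads) and Axin1 (937 and 1859 reads), scaffolds of the destruction complex, were 1.98-fold (1.90 to 2.07) and 1.89-fold (1.75 to 2.05) higher, also short of a call. Each of them was called under plain CPM, under header totals and under RPKM plus 0.1, with log2 ratios from 1.011 for Ctnnb1 to 1.55 for Apc. Axin2 (chromosome 11, 108920349 to 108950781), the scaffold that beta-catenin itself induces, stood apart from Axin1 with 35 and 587 reads, 16.0-fold higher (11.4 to 23.2).

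The nuclear partners of beta-catenin were higher for 4 of 4 genes, and remained called so under all 5 other scalings. Most of these scalings could not have removed the calls. Plain CPM and header totals raise every ratio. DESeq2 size factors and TMM without mitochondrial models and Rn45s moved the median log2 ratio by only -0.007 and -0.001. RPKM plus 0.1, which draws ratios toward equality, left Tcf7l2, the smallest of the 4, at a log2 ratio of 1.52. Over all measured genes 31.2% were higher. Lef1, Tcf7 and Tcf7l1 reached the read minimum through the tumour library, a selection that rescaling cannot test. Lef1 (chromosome 3, 131110297 to 131224357) had 6 normal and 683 tumour reads (109-fold, 49.6 to 297) and Tcf7 (chromosome 11, 52252604 to 52282571) had 5 and 567 (108-fold, 46.1 to 335). Tcf7l1 (chromosome 6, 72626371 to 72789045), a repressor that restrains pluripotency genes, had 19 and 477 (23.95-fold, 15.2 to 40.1). Tcf7l2 (chromosome 19, 55741810 to 55933655) had 125 and 319 (2.44-fold, 1.97 to 3.02). The summed level of the 4 factors was 1.70 in normal kidney and 27.1 in the tumour. In the normal kidney Tcf7l2 made up 74.3% of it, and in the tumour library Tcf7 led with 37.1%, followed by Lef1 with 27.3%, Tcf7l1 with 24.3% and Tcf7l2 with 11.3%.

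Tcf7 and Lef1 are also genes of T cells. The T cell marker Cd3e had 3 normal and 7 tumour reads, too few to count as measured. Of the 5 leukocyte markers 3 were measured, with 1 higher and 2 neither and a summed level of 18.5 against 27.7. The markers of pluripotent and neural cells given above moved with the TCF/LEF genes, and neither their part nor that of leukocytes was tested. For Lef1, 32.7% of the 50-base stretches in its GENCODE transcripts recur in an antisense gene on the other strand, and whether counting used the strand is not stated in the sources used here. The antisense model at Lef1 in the deposited table had 0 and 3 reads.

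Sp5 (chromosome 2, 70474923 to 70477726), a zinc finger factor and direct target of beta-catenin, went the other way from Axin2. It had 169 normal and 58 tumour reads and was 3.05-fold lower (2.25 to 4.19), a call kept under all 5 other scalings. Promoter windows from RefSeq (GRCm38.p6, 250 bases before to 50 after the start site) were matched by symbol for 37 of the 57 members. They were searched on both strands for CTTTGAT, the core letters that TCF/LEF factors bind. The letters stood in 3 members' windows, 1 of them called lower (Sp5), 1 higher (Wnt11) and 1 neither (Wnt5b). Windows of this length with the letters made up 3.73% of all 32851 windows and 2.56% of the 14795 windows of measured genes. Among members they made up 6.38% of 47 windows, which rests on 3 windows, and some members have several. The 3 windows are printed 5′ to 3′ on the gene's strand to show where the letters lie, with the match in capitals.
Sp5, chr2:70474673-70474972, plus strand: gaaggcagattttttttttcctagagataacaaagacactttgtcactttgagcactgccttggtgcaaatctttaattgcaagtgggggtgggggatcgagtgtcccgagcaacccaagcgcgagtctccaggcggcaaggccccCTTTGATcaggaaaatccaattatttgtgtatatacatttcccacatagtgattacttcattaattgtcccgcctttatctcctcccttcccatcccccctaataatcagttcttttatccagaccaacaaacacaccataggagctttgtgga
Wnt11, chr7:98834862-98835161, plus strand: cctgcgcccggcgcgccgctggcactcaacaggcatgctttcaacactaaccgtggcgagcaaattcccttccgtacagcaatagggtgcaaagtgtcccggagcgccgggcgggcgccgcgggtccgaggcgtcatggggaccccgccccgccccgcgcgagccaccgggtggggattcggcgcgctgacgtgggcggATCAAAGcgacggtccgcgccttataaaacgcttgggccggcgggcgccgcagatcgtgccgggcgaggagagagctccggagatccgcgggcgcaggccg
Wnt5b, chr6:119449337-119449636, minus strand: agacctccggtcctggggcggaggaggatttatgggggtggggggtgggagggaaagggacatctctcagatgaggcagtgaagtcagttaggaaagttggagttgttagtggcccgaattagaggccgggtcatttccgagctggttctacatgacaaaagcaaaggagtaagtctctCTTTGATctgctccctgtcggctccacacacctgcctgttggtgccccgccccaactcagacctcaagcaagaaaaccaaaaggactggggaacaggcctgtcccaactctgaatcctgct
The match begins 104 bases before the start site in Sp5, 51 before it in Wnt11, where it lies on the opposite strand, and 71 before it in Wnt5b. In all 3 the RefSeq start site is the start of the deposited model. The windows of Axin2, Lef1, Tcf7, Tcf7l1, Tcf7l2, Dkk1 and Fzd7 did not hold these letters, which says nothing of sites elsewhere. A match is a description of letters and not a bound site.

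Other genes of the pathway, taken from lists of known function, are set beside the members. These lists were written with earlier results of these data known. Of 94 measured genes 45 had a call of higher, 10 of lower and 39 of neither, with a median log2 ratio of 0.94, against 31.2% higher and 28.0% lower over all genes. The 94 include the beta-catenin targets described last, with 17 of 21 higher, so this count does not stand for the other lists. Some of the 94, such as Cer1 with 0 normal reads, reached the read minimum through the tumour library. Among 4 genes of Wnt secretion, Porcn (133 and 517 reads), which attaches the lipid, was 3.71-fold higher (3.06 to 4.52), and Wls (6937 and 1198 reads), the carrier that takes Wnt to the membrane, 6.07-fold lower (5.71 to 6.46). The transport proteins Tmed2 and Tmed5 lay 1.98-fold (1.77 to 2.21) and 1.83-fold (1.65 to 2.03) under their normal value and were not called.

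Of 11 measured secreted or surface inhibitors that are no members, Frzb among them, 4 were higher, 2 lower and 5 neither. The whole table stood at 31.2% higher and 28.0% lower. Cer1, the Cerberus inhibitor of Wnt, Nodal and BMP in the early embryo, had 0 and 463 reads, at least 147-fold higher (lower end 119). Draxin, a repulsive guidance cue that also blocks Wnt, had 1 and 87 reads (83.0-fold higher, 14.5 to 3315). Sostdc1, an LRP inhibitor of the distal nephron, had 1282 and 30 reads and was 44.8-fold lower (31.2 to 66.7), as were the proximal tubule and collecting duct markers given above, whose part in this value was not tested. Frzb, of the secreted Frizzled-related family, had 660 and 272 reads and was 2.54-fold lower (2.21 to 2.94), and lost its call under plain CPM, header totals and RPKM plus 0.1 (log2 ratios of -0.79, -0.99 and -0.97).

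Of 16 genes of non-canonical receptors and planar cell polarity 6 were higher, 3 lower and 7 neither. The atypical cadherin Celsr3 had 1 and 668 reads (637-fold higher, 114 to 25208) and the core polarity gene Vangl2 28 and 605 (20.6-fold higher, 14.1 to 31.3). Invs, which encodes inversin of the primary cilium, had 889 and 203 reads (4.59-fold lower, 3.94 to 5.37) and the formin Daam2 592 and 150 (4.14-fold lower, 3.45 to 4.98). Among 18 genes of Dishevelled and the destruction complex 6 were higher and 12 neither. In this last list the largest ratios were those of the kinase Csnk1e (252 and 1436 reads, 5.44-fold, 4.75 to 6.24) and the relay protein Dvl2 (243 and 1264 reads, 4.96-fold, 4.32 to 5.72). In both lists the count of higher genes lies near the 31.2% of all measured genes, where 28.0% were lower.

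Of 9 cytoplasmic feedback genes 5 were higher and 4 neither, among them Cxxc4 (13 and 121 reads, 8.88-fold, 5.002 to 17.2) and the Dishevelled antagonist Nkd2 (19 and 166 reads, 8.34-fold, 5.17 to 14.2). Of 16 nuclear cofactors 7 were higher, 2 lower and 7 neither. Beside both lists, the share over all measured genes was 31.2% higher and 28.0% lower. Bcl9, which links beta-catenin to the transcription machinery, had 159 and 811 reads (4.87-fold higher, 4.10 to 5.81) and the co-repressor Tle4 491 and 2290 (4.45-fold higher, 4.03 to 4.92). Aes, a short relative of the Tle co-repressors, had 7930 and 1077 reads (7.72-fold lower, 7.24 to 8.23) and Tle2 130 and 34 (4.01-fold lower, 2.73 to 6.03).

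Genes often read as targets of beta-catenin, outside the members, were higher for 17 of 21 measured genes, lower for 1 and neither for 3. Their median log2 ratio was 3.25. Over all measured genes 31.2% were higher and 28.0% lower. T, Cdx1, Mixl1, Sp8, Ascl2, Sox9, Msx1, Msx2 and Mmp7, all called higher, had 0 to 8 normal reads. These genes reached the read minimum through the tumour library, so the count is a description. With at least 100 reads, 11 of 15 listed genes were higher and 1 lower, with a median of 2.075. T, which encodes Brachyury, had 1 normal and 385 tumour reads (367-fold higher, 65.5 to 14544) and Sp8, a relative of Sp5, had 0 and 295 (at least 93.8-fold higher, lower end 75.8). Bmp4 (772 and 191 reads) was 4.24-fold lower (3.61 to 4.99). Nkd1 and Notum, both in this list, were picked for naming after their values were seen. Nkd1 (36 and 159 reads) was 4.21-fold higher (2.92 to 6.23), while Notum (490 and 330 reads) was 1.56-fold lower (1.35 to 1.80) and not called. T and Mixl1 in this list are also primitive streak markers, and Myc is 1 of the induced reprogramming factors, so the list does not stand for beta-catenin alone.

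**Figure D4:**
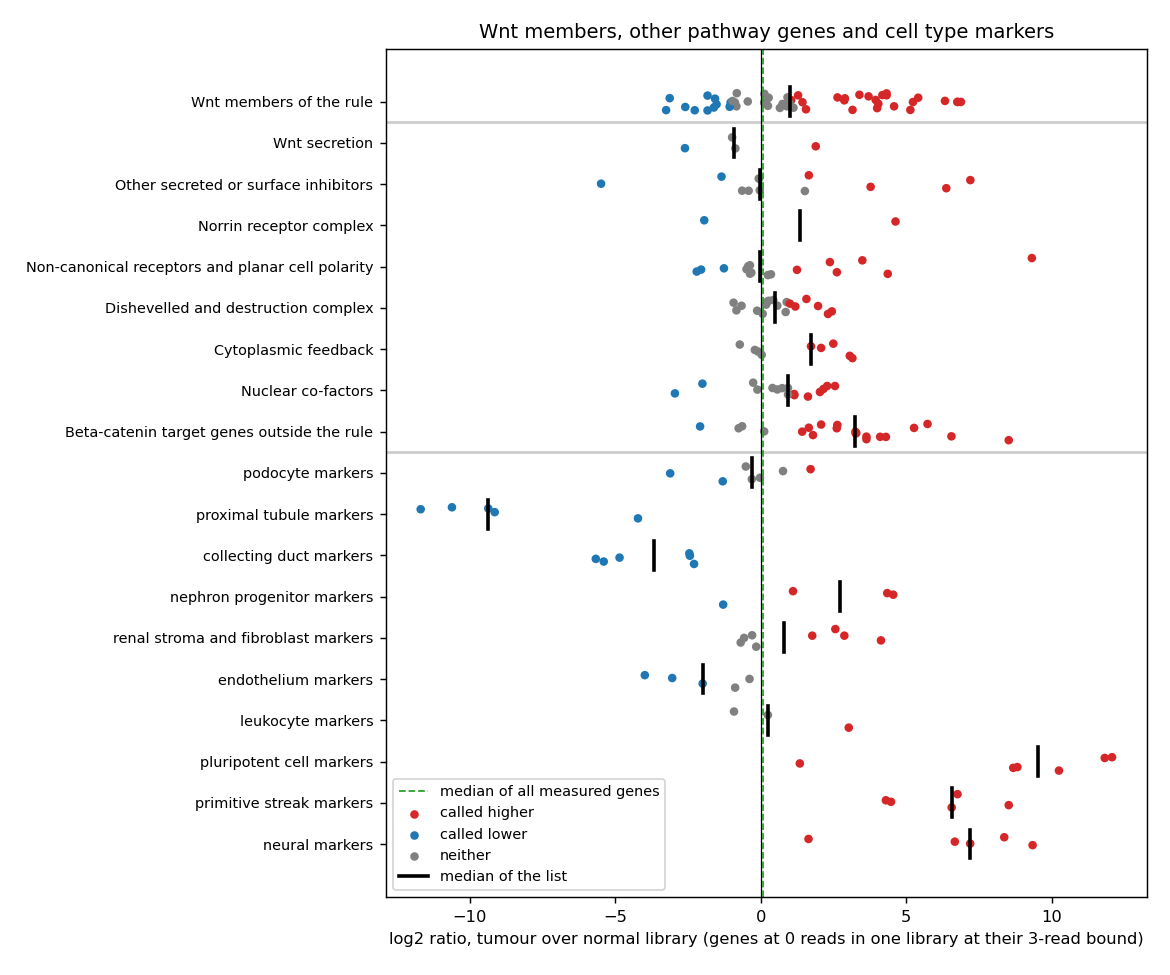
log2 ratio, tumour over normal library, of the measured members (top row), of 8 lists of other pathway genes and of 10 lists of cell type markers, 1 point per gene, with a black bar at the median of the list and a dashed line at that of the whole table. Members lie on both sides of 0, tubule and duct markers on the left and pluripotent, primitive streak and neural markers on the right.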

How the data were processed

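RNA of 2 mouse kidney samples, 1 normal and 1 tumour, was depleted of ribosomal RNA and sequenced from stranded libraries, per the labels' protocols. The authors deposited read counts over exons of 32958 UCSC gene models (mm10). Per the submitters' processing notes, the tools were HOMER, STAR 2.5.0c and bcl2fastq. The authors' deposited RPKM values equal those counts divided by transcript length and by the total in the file headers, with a largest difference of 1.80e-06. Strand setting and treatment of multiply mapped reads are not stated in the sources used here.

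The model with most reads stood for a symbol. Counts were scaled with TMM (edgeR 4.0.16, R 4.3.3; factors 0.824 for normal kidney and 1.21 for the tumour) and ratios given exact conditional 95% intervals (scipy 1.17.1), checked on simulated counts. A count of 0 was set to 3 reads, or 0.124 CPM (normal) and 0.119 CPM (tumour). Measured means at least 20 reads over both libraries. Members, lists and rules were chosen with earlier results of these data known. In each other list the 2 called genes of largest ratio per direction (mean of at least 1 CPM), and every gene of lists of 6 or fewer, could be named. Transcripts were compared in 50-base stretches with GENCODE M21. For 51 of 57 members at most 5% of stretches recurred in another gene. The others were Lef1 (32.7%), Fzd5 (16.4%), Ctnnb1 (15.2%), Sfrp2 (12.9%), Rspo3 (11.6%) and Wnt11 (8.68%), all shared with a gene annotated on the opposite strand, which is a pseudogene at Wnt11. Other library scalings, read minimums, a 4-fold threshold and summed gene models were tried as alternatives.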

Additional observations from a re-analysis of the deposited data

How the results depend on the processing

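The scalings tried were plain CPM, header totals, DESeq2 1.42.0 size factors, deposited RPKM plus 0.1, and TMM without mitochondrial models and Rn45s. No called member changed direction under them, but that was fixed in advance. They moved the whole-table median log2 ratio by at most 0.56, less than the 2-fold that a call needs. The 0.1 added to RPKM only draws a ratio toward equality. Summing the models of a symbol left the members' own counts as they were, because each member has 1 gene model. The 11 lower members became 7 with plain CPM, 7 with RPKM plus 0.1 and 4 at a 4-fold threshold, and the 24 higher members of 50 became 14 of the 34 with at least 100 reads, where 8 were lower and the whole table had 3827 higher and 3961 lower of 13670 genes. At 4-fold the genes of the whole table came to 3023 higher and 2573 lower, against 5099 and 4566 at 2-fold. Log2 ratios left the counting interval for 25 of 50 members under plain CPM, 21 under header totals and 30 under RPKM plus 0.1, and for none under DESeq2 size factors. No alternative reran the comparison without a library, because each group holds 1, and no paired analysis was possible because the groups share no replicate. Depth limits the ligands: 13 of 19 Wnt genes had fewer than 20 reads in the normal library. The alternatives for pathway genes outside the members were added after seeing the data, where 32 to 53 genes were higher and 7 to 10 lower.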
